A study of Mus musculus with 8 samples.

Results

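Mechanosensitive channels are membrane proteins that pass ions when the membrane is stretched, swollen or pushed. The transcripts of 8 genes grouped under this name were followed in spinal cord astrocytes with and without the potassium channel Kir4.1. The grouping does not mean that direct opening by force is settled for each gene. The 8 genes are Piezo1 and Piezo2, the 3 Tmem63 genes (Tmem63a, Tmem63b, Tmem63c), and 3 genes of the transient receptor potential (TRP) superfamily, Trpv4, Trpc1 and Trpm7. They were matched by gene symbol in the authors' deposited table and joined by Ensembl identifier to the count tables, and all 8 were found among 39179 identifiers. The set was chosen by the counts of Piezo2, which were lower in the knockout libraries than in the controls, and the other 7 genes were taken as further mechanosensors, so the difference of each member between the groups is given here as a description, without a p-value.

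The data are 8 RNA-seq libraries of astrocytes sorted by flow cytometry for the Aldh1l1-GFP reporter, which all animals carried, from mouse spinal cord at postnatal days 12 to 14, with a mixed Swiss-Webster background. The 4 control libraries, S1, S2, S6 and S7, are from cre-negative animals whose genotype label is wild-type; whether they carried floxed alleles is not given in the sources used here. The 4 knockout (cKO) libraries, S3, S4, S5 and S8, are from animals with Aldh1l1-cre and both Kir4.1 alleles floxed. The cre transgene and the sorting reporter both rest on regulatory sequence of Aldh1l1, a gene used as an astrocyte marker that is also active in other cells, so the deletion need not be limited to astrocytes. The submitters describe the 4 libraries of each group as biological replicates.

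Piezo1 and Piezo2 form large 3-bladed trimers with a central pore and open when the surrounding membrane is pulled flat. Piezo2 is best known as the channel of touch and proprioception in sensory neurons, and Piezo1 as a sensor of flow and stretch in blood vessels and many other tissues. Tmem63 proteins are relatives of the plant OSCA channels and are opened by high membrane tension or osmotic change. Trpv4 is a calcium-permeable channel opened by cell swelling, warmth and lipid messengers, Trpc1 joins other TRPC subunits and takes part in calcium entry, and Trpm7 is a magnesium- and calcium-permeable channel fused to a kinase. In astrocytes, Kir4.1 (gene Kcnj10) takes up the potassium that active neurons release, and water follows ions across the astrocyte membrane, so that channels responding to swelling are of interest in these cells.

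Gene reads per library ranged from 13892736 to 25065686, and 17312 to 20470 genes had at least 1 read. Levels are given as CPM, read counts scaled to a common library size after adjustment for composition. Values of single libraries are listed in the order S1, S2, S6, S7 for controls and S3, S4, S5, S8 for cKO. Kcnj10, the targeted gene, was at 1181 to 2306 CPM in the controls and at 27.2 to 37.6 CPM in the cKO libraries, so it contradicts no library's label. The names on the deposited FPKM columns did not follow the count tables: 3 of 8 columns matched their namesake among the count tables, although all 8 matched a library within the right group, so library names here are those of the count tables, and FPKM values are used by group only. Of 12 astrocyte markers all had reads, with a summed level of 16992 to 24837 CPM in controls and 19804 to 24369 CPM in cKO, so the defining markers of the labelled cell type were present in both groups. Of these 12 markers edgeR called 2, both higher in cKO, against 0.318% of all 14757 genes tested. Aldh1l1, whose regulatory sequence drives the reporter and the cre, was at 131 to 152 CPM in controls and 245 to 350 CPM in cKO (log2 fold change 1.01, adjusted p = 0.0179 by edgeR). Aqp4, the water channel of astrocyte endfeet, was at 1588 to 2454 CPM in controls and 3373 to 5268 CPM in cKO (log2 fold change 1.09, adjusted p = 0.0243 by edgeR). The part of these differences in the values of the channel genes was not tested.

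Piezo2 (ENSMUSG00000041482, chromosome 18, 63010213 to 63387183 on GRCm38, minus strand) was the member that set the cKO libraries apart. It held 56, 80, 129 and 136 reads in the control libraries, which is 3.55, 5.82, 7.09 and 6.44 CPM. It held 17, 11, 7 and 8 reads in the cKO libraries, which is 0.868, 0.499, 0.399 and 0.342 CPM. The groups did not overlap. As a measure of depth, the exact 95% Poisson interval was 2.68 to 4.61 CPM for control S1 and 0.506 to 1.39 CPM for cKO S3, and such intervals cover counting error only, not the spread between animals. The control mean was 5.73 CPM ± 1.54 and the cKO mean 0.527 CPM ± 0.236 (SD, 4 libraries each), a fall to 9.21% of the control mean, or 10.9-fold lower. The log2 fold change, cKO over control, was −3.43 (standard error, SE, 0.57). In bulk RNA of sorted cells, fewer cells that express a gene and less RNA per cell cannot be told apart.

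Of the 7 members that passed the filter on low counts, 1 was called, Piezo2 (edgeR, quasi-likelihood test, threshold 0.05 on the adjusted p), against 0.318% of all 14757 genes tested. It was also the only member whose groups did not overlap, a pattern that 6.34% of all genes tested showed. Because Piezo2 chose the set, nothing is read from either count. Piezo2 was not called with limma-voom, with Xist level as a covariate, and without control S2, S6 or S7 or cKO S4, S5 or S8. Over the fits without 1 library its log2 fold change ran from −3.76 to −3.27. The authors' deposited table gave Piezo2 a shrunken log2 fold change of −2.40. It called 2 of the 6 members for which it lists an adjusted p, Piezo2 and Trpc1, against 2.87% of its 12314 genes. This count also includes Piezo2, so nothing is read from it, and the call of Trpc1 lay just under the threshold of 0.05.

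**Figure D1:**
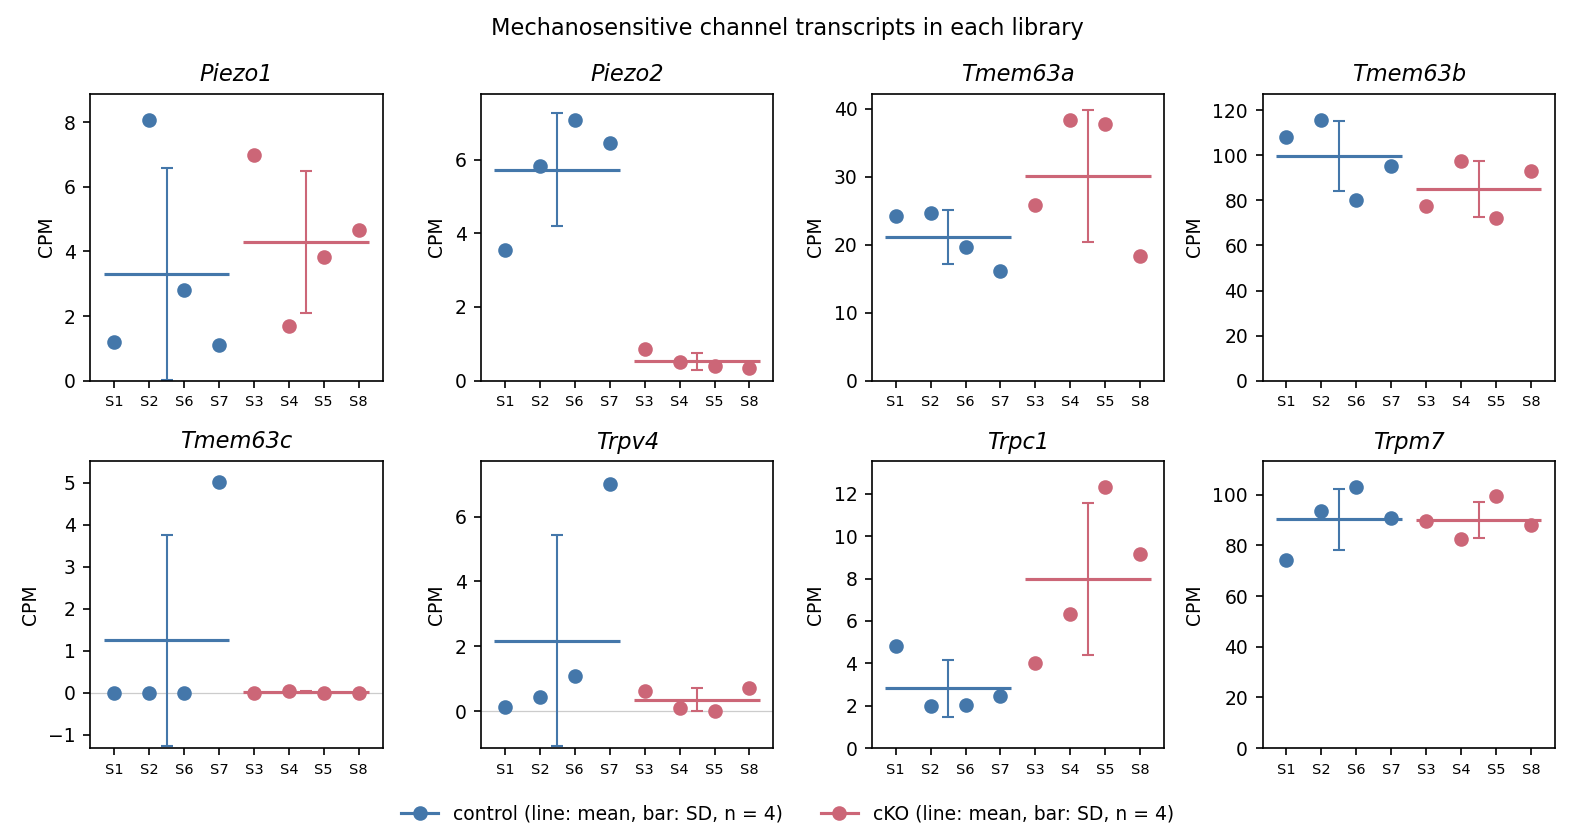
CPM of each of the 8 channel transcripts (linear y axes, scaled per gene) in the 4 control libraries (S1, S2, S6, S7) and the 4 cKO libraries (S3, S4, S5, S8); points are libraries, horizontal lines group means and vertical bars SD. Piezo2 separates the groups, with 3.55 CPM or more in controls and 0.868 CPM or less in cKO, while the high control means of Tmem63c and Trpv4 come from control S7.

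Piezo1, the paralog (ENSMUSG00000014444, chromosome 8, 122481698 to 122551329, minus strand), did not separate the groups. It was at 1.20, 8.08, 2.80 and 1.09 CPM in the control libraries. In the cKO libraries it was at 6.997, 1.68, 3.82 and 4.67 CPM. High and low libraries occurred in both groups: control S2 and cKO S3 held the most, and control S1 and S7 and cKO S4 the least. Means were 3.29 CPM ± 3.29 and 4.29 CPM ± 2.1995 (SD, 4 libraries each). The log2 fold change was 0.39 (SE 0.69). Control S2 decided the size of this difference, since without it the log2 fold change was 1.33, and without cKO S3 it was 0.049. Piezo1 shares 2441 bases of exon with Ctu2 on the other strand, and the strand setting of the counting is not given in the sources used here.

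The Piezo genes were also set against each other per kilobase of exon. Piezo2 made up 63.0%, 29.4%, 59.4% and 77.4% of the summed Piezo1 and Piezo2 level per length in the control libraries. In the cKO libraries its share was 6.70%, 14.7%, 5.70% and 4.08%. The lowest control share, in control S2, where Piezo1 was highest, was still above the highest cKO share, in cKO S4, where Piezo1 was low. The mean share was 57.3% ± 20.1 in controls and 7.79% ± 4.72 in cKO (SD, 4 libraries each), a difference that follows from the Piezo2 values above.

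Among the Tmem63 genes, Tmem63b (ENSMUSG00000036026, chromosome 17, 45660171 to 45686905, minus strand) was the most abundant and varied little. Its level was 108, 116, 80.2 and 95.3 CPM in the control libraries and 77.3, 97.6, 72.2 and 93.1 CPM in the cKO libraries. The cKO values lay within or just below the control range. Means were 99.8 CPM ± 15.6 and 85.1 CPM ± 12.2 (SD, 4 libraries each), and the log2 fold change was −0.23 (SE 0.17). Tmem63b shares 106 bases of exon with Mrpl14 and 288 with Gm16172, both on the other strand.

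Tmem63a (ENSMUSG00000026519, chromosome 1, 180942344 to 180975112, plus strand) was at 24.2, 24.6, 19.6 and 16.2 CPM in the control libraries. In the cKO libraries it was at 25.9, 38.4, 37.8 and 18.3 CPM. Of the 4 cKO libraries, 3 lay above every control library and cKO S8 lay below 3 of the 4 controls. Means were 21.1 CPM ± 4.03 and 30.1 CPM ± 9.76 (SD, 4 libraries each). The log2 fold change was 0.51 (SE 0.27). Tmem63a shares 157 bases of exon with 2210411M09Rik on the other strand, which held 9 reads in total. Tmem63a is known to be active in oligodendrocytes, where it has a part in myelin formation. Summed oligodendrocyte markers (12 of 12 with reads) were at 1572 to 3207 CPM in controls and 1055 to 2557 CPM in cKO, and their part in the Tmem63a values was not tested.

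Tmem63c (ENSMUSG00000034145, chromosome 12, 87021340 to 87090043, plus strand) was almost absent and is the 1 member that did not pass the filter on low counts. It had 106 reads in control S7, 5.02 CPM, and 0 reads in the other 3 control libraries. Among cKO libraries it had a single read, in S4. A count of 0, which allows for up to 3 reads, limits the level to 0.218 CPM in control S2, the shallowest library, and to 0.128 CPM in cKO S8, the deepest. The deposited FPKM values likewise hold 1 control column at 13.7 and the other 3 at 0. No fold change is given, because the control level is that of a single library.

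Of the TRP genes, Trpm7 (ENSMUSG00000027365, chromosome 2, 126791565 to 126876230, minus strand) was the most even member. It was at 74.2, 93.4, 103 and 90.7 CPM in the control libraries and at 89.7, 82.6, 99.6 and 88.0 CPM in the cKO libraries, with all cKO values inside the control range. Means were 90.3 CPM ± 11.99 and 90.0 CPM ± 7.08 (SD, 4 libraries each). The log2 fold change was −0.0056 (SE 0.16). The sign of this value turned with the setting, from −0.097 on deposited FPKM with a pseudocount of 0.1 to 0.11 on library totals without composition normalization.

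Trpc1 (ENSMUSG00000032839, chromosome 9, 95705082 to 95750375, minus strand) lay on the other side from Piezo2, higher in most cKO libraries. It was at 4.82, 1.97, 2.03 and 2.46 CPM in the control libraries. In the cKO libraries it was at 4.03, 6.35, 12.3 and 9.16 CPM. The groups overlapped through a single pair, since control S1 was above cKO S3. Means were 2.82 CPM ± 1.35 and 7.96 CPM ± 3.58 (SD, 4 libraries each), 2.82-fold higher in cKO. The log2 fold change was 1.50 (SE 0.48). Without control S1 the log2 fold change was 1.88, and without cKO S5 it was the lowest of the fits that left out a library, 1.22. No alternative fit to the counts called Trpc1, whereas the authors' deposited table did.

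Trpv4 (ENSMUSG00000014158, chromosome 5, 114622152 to 114658421, minus strand) rested on few reads. It had 2, 6, 20 and 148 reads in the control libraries, or 0.127, 0.437, 1.10 and 7.01 CPM. It had 12, 2, 0 and 17 reads in the cKO libraries, or 0.613, 0.0907, 0 and 0.728 CPM. Control S7 held 12.7 times the mean of the other 3 controls, whose values overlap those of the cKO libraries. Means were 2.17 CPM ± 3.25 and 0.358 CPM ± 0.366 (SD, 4 libraries each). The log2 fold change was −2.57 (SE 1.27). Without control S7 the control mean was 0.554 CPM and the log2 fold change −0.61.

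Control S7 thus carried most of the reads of both Trpv4 and Tmem63c among the controls. In that library 59 genes were more than 5 times above the highest of the other 7 libraries, with 0.5 CPM added to each value. The same count was 0 to 34 genes in the other libraries, highest in cKO S5 and next in control S6 with 31. OPC (oligodendrocyte precursor) markers summed to 1616 CPM in control S7 and to 626 to 1024 CPM in the other controls. Ependymal markers summed to 36.1 CPM in control S7, inside the 18.6 to 49.7 CPM range of the controls. Single ependymal markers differed from the sum. Pifo, Rsph1, Dnah12 and Cfap126 were highest among the controls in S7, and Foxj1, Tekt4, Tmem212 and Ccdc153 in S6. The part of other cells in the Trpv4 and Tmem63c reads of control S7 was not tested.

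**Figure D2:**
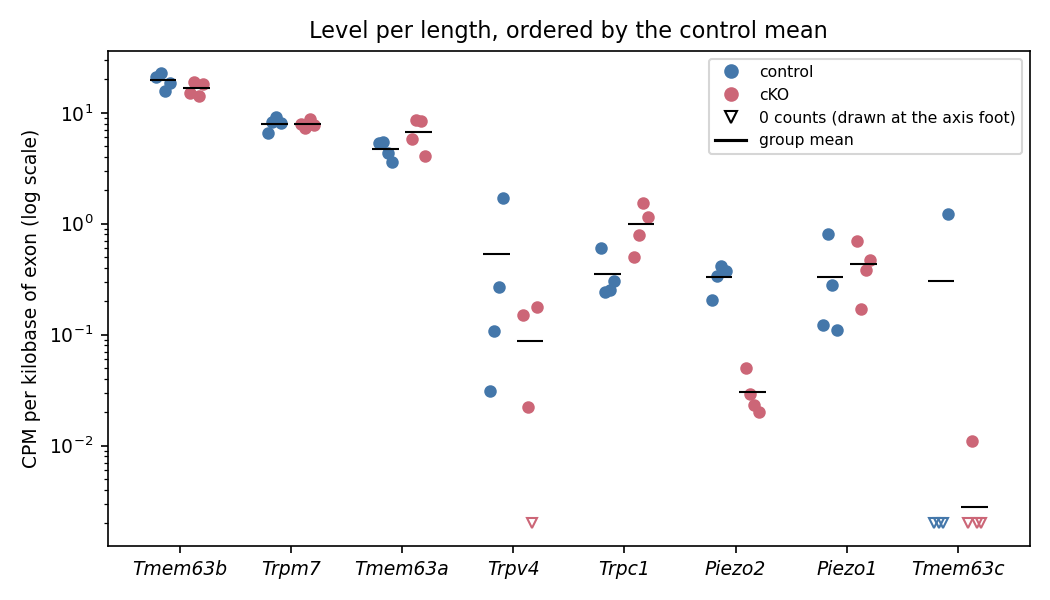
CPM per kilobase of exon (log axis) for the 8 channels, ordered by the control mean; filled points are libraries, open triangles libraries with 0 counts drawn at the foot of the axis, and black lines group means. Tmem63b, Trpm7 and Tmem63a stand apart from the other 5 channels in both groups.

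Levels of different genes were compared per kilobase of exon. In controls the order of CPM per kilobase was Tmem63b at 19.6 ± 3.06, Trpm7 at 7.98 ± 1.06 and Tmem63a at 4.71 ± 0.90 (SD, 4 libraries each), with ranges that did not overlap. The other 5 followed far below, Trpv4 at 0.532, Trpc1 at 0.351, Piezo2 at 0.334, Piezo1 at 0.332 and Tmem63c at 0.307 CPM per kilobase, and each neighbour in this order overlapped the next. The spread over control libraries was 99.7% of the mean for Piezo1 and 26.9% for Piezo2. The Piezo1 mean rested on control S2, without which it was 0.171 CPM per kilobase, and the Trpv4 mean on control S7, without which it was 0.136.

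In cKO the order of CPM per kilobase was Tmem63b at 16.7, Trpm7 at 7.95, Tmem63a at 6.71, Trpc1 at 0.992, Piezo1 at 0.432, Trpv4 at 0.0878, Piezo2 at 0.0307 and Tmem63c at 0.0028. Trpm7 and Tmem63a now overlapped, and so did each neighbour from Trpc1 down to Piezo2. In the deposited FPKM values, Tmem63b and Trpm7 had control means of 64.0 ± 13.0 and 64.2 ± 27.4 FPKM (SD, 4 libraries each). Of the 4 control columns for Trpm7, 3 were at 46.9 to 54.7 FPKM and 1 at 105. Those for Tmem63b were at 50.1 to 80.7 FPKM. In FPKM the control ranges of Tmem63b and Trpm7 thus overlapped, and their order in CPM per kilobase was not repeated. FPKM of Piezo2 was 2.14 ± 1.38 in controls and 0.194 ± 0.153 in cKO, and that of Trpc1 was 1.16 ± 0.55 and 3.25 ± 1.49 (SD, 4 libraries each).

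**Figure D3:**
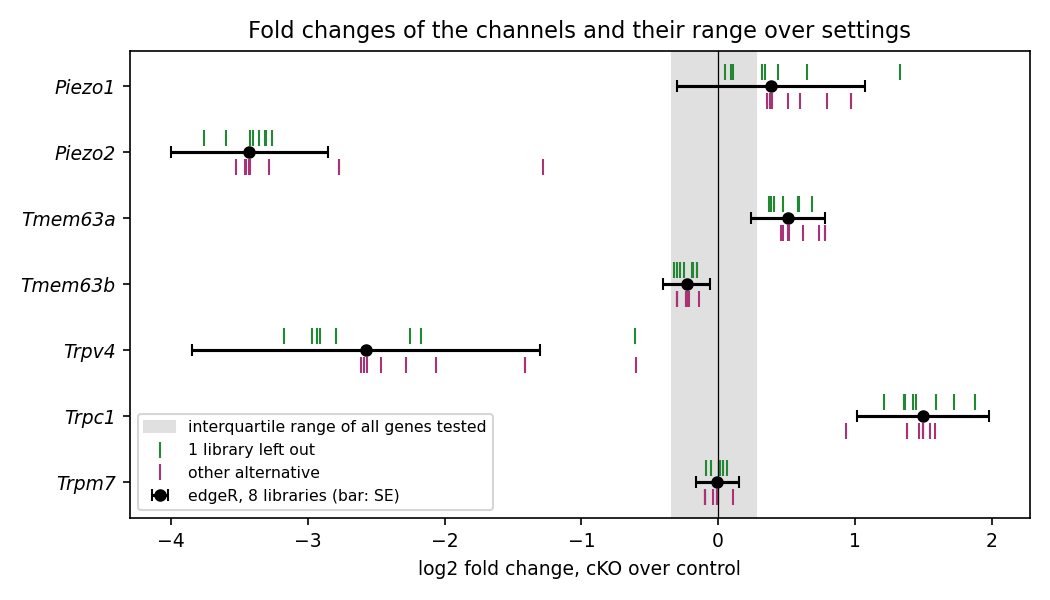
Log2 fold change (cKO over control) of the 7 channels that passed the filter on low counts; black points and bars are the edgeR estimate with its SE over 8 libraries, green ticks fits without 1 library, purple ticks other alternatives, and the grey band the interquartile range of all genes tested. Piezo2 stays between −3.76 and −1.28 in every fit shown, Trpv4 moves to −0.61 without control S7, and Trpm7 and Tmem63b stay inside the grey band.

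Over the 7 members that passed the filter, log2 fold changes ran from −3.43 to 1.50, with 4 below 0 and 3 above. All genes tested had a median of −0.017 with quartiles of −0.33 and 0.28, so Tmem63b and Trpm7 lay inside the middle of that distribution and Piezo2, Trpv4, Trpc1, Tmem63a and Piezo1 outside it. The 2 members with the highest counts, Tmem63b and Trpm7, also had the smallest standard errors, 0.17 and 0.16, and Trpv4, with the fewest reads of the 7, the largest.

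Markers of other cells were examined beside these values, as summed CPM per library. Because Piezo2 is known from sensory neurons, 13 markers of those cells were included. Of these markers, 11 had reads. Scn10a and Scn11a, which define many but not all sensory neurons, had 0 reads in all 8 libraries. Ntrk3, at 212 to 286 CPM, made up nearly the whole sum of 213 to 288 CPM in controls and 249 to 274 CPM in cKO. Among the others the highest values were 9.47 CPM for Tac1 in control S7 and 3.65 CPM for P2rx3 in cKO S5. General neuronal markers (13 of 13 with reads) were at 71.6 to 91.8 CPM in controls and 40.7 to 98.8 CPM in cKO, and were lower than any control in 3 cKO libraries. Their part in the Piezo2 difference was not tested.

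The sums of the remaining lists overlapped between the groups. Endothelial markers were at 48.1 to 72.7 CPM in controls and 23.8 to 59.7 CPM in cKO, and cKO S4, S5 and S8 were lower than any control. This touches Piezo1, a gene of blood vessels, and the part of endothelial cells in its values was not tested. Microglia markers were at 29.5 to 53.3 CPM and 38.2 to 69.4 CPM, mural markers at 29.7 to 49.1 CPM and 35.2 to 38.7 CPM, and fibroblast markers at 122 to 590 CPM and 98.4 to 170 CPM, in controls and cKO. OPC markers reached 693 to 851 CPM in cKO. Ependymal markers in cKO were at 18.5 to 42.3 CPM. Markers of neurons that contact the cerebrospinal fluid were at 0.655 to 3.02 CPM in controls and 0.741 to 5.11 CPM in cKO. Schwann cell markers, nearly all Pmp22, were at 77.5 to 152 CPM and 96.3 to 186 CPM.

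The genes whose pattern over the 8 libraries was most like that of Piezo2 were named by Pearson correlation of log2 CPM among 12202 genes. They were Kcnj10 (r = 0.977), Wnk2, a kinase that regulates ion cotransport (0.976), Aqp7, a water and glycerol channel (0.952), Tjap1 (0.952) and Tmem204 (0.951). These values share the same 8 libraries and are mostly set by the difference between the groups. After subtraction of each group's mean, which leaves only the scatter among libraries of the same group, the 5 highest were Tjap1 (0.963), C1ql3 (0.952), Usp29 (0.942), Rybp (0.939) and Dnah9 (0.932), and the value for Kcnj10 was 0.470. These 5 were picked as the highest of 12202 genes over 8 libraries, a choice that itself favours high values. Some rest on few reads, such as C1ql3 at 1.24 CPM in controls and 1.28 CPM in cKO. No link to Piezo2 is read from them. In control S1, both Piezo2 and Kcnj10 were at their lowest among the controls, 3.55 and 1181 CPM. Their highest libraries differed. Among controls, Piezo2 was highest in S6 (7.09 CPM) and Kcnj10 in S2 (2306 CPM). Among cKO libraries, Piezo2 was highest in S3 (0.868 CPM) and Kcnj10 in S5 (37.6 CPM).

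Genes around these channels were taken from 4 lists: other TRP channels, other force-gated or related channels, regulators and partners of Piezo channels, and targets and mediators of YAP and TAZ, transcriptional coactivators that respond to cell tension. Of 25 other TRP genes 13 were tested, and 0 were called in either direction by edgeR's quasi-likelihood test, against 0.318% of all genes tested. At an unadjusted p under 0.05 there was 1, Pkd2l1, named after its values were seen, beside 9.81% of all genes tested. DESeq2, which called 2.49% of the 15441 genes it gave an adjusted p, called 0 of the list, and so did limma-voom. The median log2 fold change of the list was 0.072, against −0.017 over all genes tested. Trpm3, by far the most abundant TRP transcript, was at 587 CPM ± 85.0 in controls and 666 CPM ± 61.4 in cKO (SD, 4 libraries each), a log2 fold change of 0.18, adjusted p = 0.752 by edgeR. Per kilobase its control level of 24.0 CPM was above the Tmem63b level of 19.6. For Pkd2, the polycystin of cilia, and the lysosomal channel Mcoln1 the log2 fold changes were −0.18 and 0.29 (adjusted p by edgeR 0.862 and 0.826).

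Of 28 other force-gated or related channel genes 20 were tested, and edgeR called 0, with 5 at an unadjusted p under 0.05, beside 9.81% of all genes tested, and 0 by DESeq2 or limma-voom. The list's median log2 fold change was −0.32 and 65.0% of its tested genes were below 0, against 51.6% of all genes tested. That share was 66.7% for Piezo regulators and partners, 46.2% for other TRP channels and 34.5% for YAP and TAZ genes. Tmc7, of the family that holds the hair cell transduction channel, was at 332 CPM ± 81.9 in controls and 210 CPM ± 32.3 in cKO (SD, 4 libraries each), a log2 fold change of −0.66, adjusted p = 0.247 by edgeR. Lrrc8a, the core subunit of the volume-regulated anion channel, had a log2 fold change of −0.38, and Pkd1, the large partner of Pkd2, one of 0.30, with adjusted p of 0.576 and 0.571 from edgeR.

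Of 10 regulators and partners of Piezo channels 9 were tested, and edgeR called 0, with 1 at an unadjusted p under 0.05, Anxa6, beside 9.81% of all genes tested. DESeq2 called 1, Anxa6, beside 2.49% of its genes, and limma-voom 0. The median log2 fold change was −0.11. Anxa6, a calcium-dependent membrane-binding protein, was at 61.3 CPM ± 2.22 in controls and 103 CPM ± 21.1 in cKO (SD, 4 libraries each), with no overlap between groups, a log2 fold change of 0.75 and an adjusted p of 0.102 by edgeR. Atp2a2, the endoplasmic reticulum calcium pump, and Ctnnb1, beta-catenin, had log2 fold changes of −0.11 and −0.024 (adjusted p by edgeR 0.873 and 0.984). Mdfic, which encodes an auxiliary subunit of Piezo channels and is named here after its values were seen, was at 3.79 CPM in controls and 2.99 CPM in cKO.

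Of 33 entries for YAP and TAZ targets and mediators, which include the older names of 2 genes, 29 genes were tested. The quasi-likelihood test called 0, with 6 at an unadjusted p under 0.05, beside 9.81% of all genes tested. DESeq2 called 1, Rbms3, also named after its values were seen, beside 2.49% of its genes, and limma-voom 0. The median log2 fold change was 0.094. In 6 of the 29 the groups did not overlap, beside 6.34% of all genes tested. The same count was 0 of 13 for other TRP channels and 1 of 20 for other force-gated or related channels. For Piezo regulators and partners it was 1 of 9. Tead1, the DNA-binding partner of YAP, was at 154 CPM ± 17.5 in controls and 219 CPM ± 29.5 in cKO (SD, 4 libraries each), a log2 fold change of 0.51, adjusted p = 0.270 by edgeR. F3, tissue factor, and Fjx1 had log2 fold changes of 0.029 and 0.094 (adjusted p by edgeR 0.981 and 0.922).

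**Figure D4:**
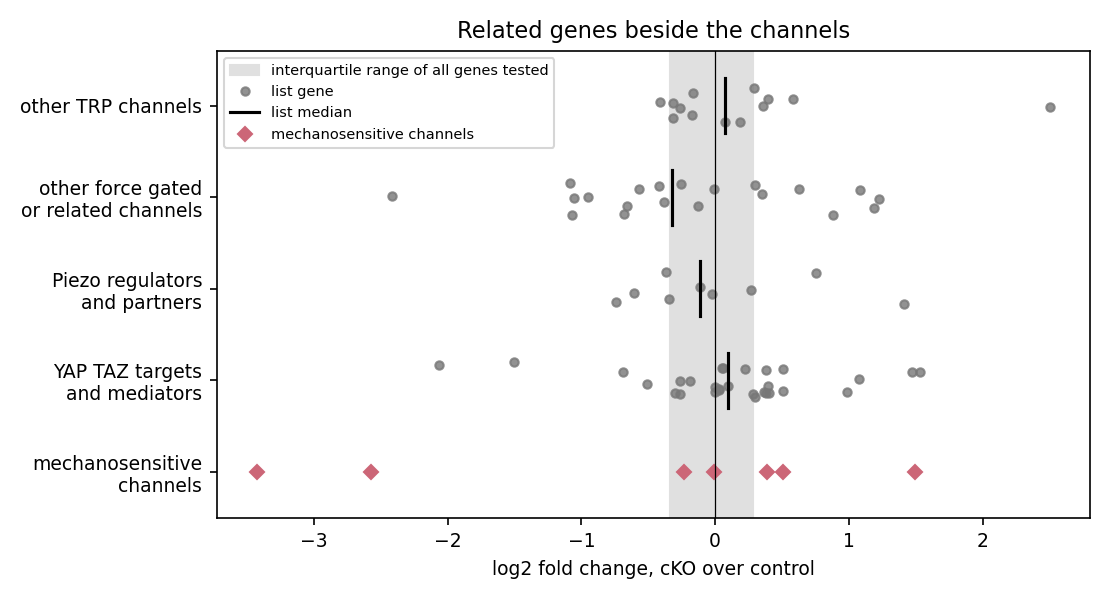
Log2 fold change (cKO over control) of every tested gene of the 4 related lists (grey points, with the list median as a black bar) and of the 7 tested mechanosensitive channels (red diamonds); the grey band is the interquartile range of all genes tested and vertical scatter within a row has no meaning. Piezo2, whose fall chose the set, lies at −3.43, below every tested gene of the 4 lists. List genes that did not pass the filter on low counts have no fold change and are not shown. The list medians lie between −0.32 and 0.094.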

How the data were processed

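The authors deposited 1 table of whole-number read counts per library for 39179 Ensembl genes, with 5 summary lines that name no gene, hold 56.4% to 61.7% of reads and were left out. They also deposited FPKM values, and a comparison that, per the file headers, holds group mean counts (a signal), a log2 fold change, its standard error and a Wald statistic (scores) and p-values. The submitters' processing notes list GRCm38, FastQC 0.11.4, TopHat2 2.0.11, Bowtie2 2.2.3, HTSeq 0.6.1p1, DESeq2 1.14.1, Cuffnorm and Cufflinks 2.2.1; the strand setting is not given in the sources used here.

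Counts were tested with edgeR 4.0.16 in R 4.3.3 (quasi-likelihood, TMM, filterByExpr, no covariate, Benjamini-Hochberg adjustment over 14757 genes, threshold 0.05), with standard errors from the F statistic, and the script was tested on simulated data. DESeq2 1.42.0, limma 3.58.1 (voom), other scaling and filters, Xist as a covariate, deposited FPKM and each library left out were alternatives. Figures used matplotlib 3.10.9. Lengths, overlaps and coordinates are from GENCODE M21 on GRCm38.

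Members and gene lists were chosen with earlier results of these data known. Named were the members, Kcnj10, the list members called, the 3 most abundant genes of each list, genes overlapping a member's exons and the 5 genes most like Piezo2 by either correlation (prior count 2, mean of at least 1 CPM, no predicted genes). Marker lists covered astrocytes, sensory and other neurons, neurons contacting the cerebrospinal fluid, oligodendrocytes, OPC, microglia, endothelial, mural, fibroblast, ependymal and Schwann cells. Single markers and genes named outside this rule were picked after their values were seen.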

Additional observations from a re-analysis of the deposited data

Results flagged for a closer look

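Among the 16 sets of 4 libraries examined (8 genes, controls and cKO), 3 held a library far from its group. Chance gives about 1 in 20 such sets for normally distributed values, which CPM of genes with few reads need not be. Trpv4 was at 7.01 CPM in control S7, where the next control library was at 1.10 CPM. Tmem63c was at 5.02 CPM in control S7 and at 0 in the other controls. In cKO S4, Tmem63c was at 0.0454 CPM, which is a single read, against 0 elsewhere in cKO. In both Tmem63c sets the other 3 libraries were at 0, so that any read at all sets a library apart by construction, and the chance share does not apply to them.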

How the results depend on the processing

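Over 17 alternatives each, the fold changes of Piezo1, Tmem63a, Tmem63b and Trpc1 kept their sign and moved by less than the spread between libraries. Those of Trpm7, near 0, were below 0 in 10 and above 0 in 7. Piezo2 gave −2.77 on deposited FPKM with a pseudocount of 0.1, also with only genes at a mean of at least 0.5 FPKM, and −1.28 with a pseudocount of 1, which shrinks low values by construction. Trpv4 gave −0.60 with that pseudocount, and −3.17 to −0.61 over fits with 1 library left out. Against 47 genes called over all, at least 1 count in any library gave 87, DESeq2 384, Xist as a covariate 28 and fits without 1 library 4 to 45, with 4 without cKO S4; the cause was not tested. TMM gave 30 higher and 17 lower, and library totals 48 higher and 14 lower. DESeq2 called 1 gene each among Piezo regulators and YAP and TAZ genes, where edgeR called 0. At the 7 to 17 reads of Piezo2 per cKO library, their Poisson intervals overlap. No paired analysis was possible because the groups share no replicate number.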
